A study of Mus musculus with 14 samples.

Results

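The genes of 3 families of sequence-specific DNA-binding proteins were followed: the Ikaros zinc-finger genes Ikzf1, Ikzf2, Ikzf3 and Ikzf5, the zinc-finger repressors Bcl11a and Bcl11b, and the CNC bZIP repressors Bach1 and Bach2. The 8 genes were picked by symbol from the 54532 rows of the count table, and each symbol was found. RNA was sequenced from mouse bone marrow sorted as LT-HSCs, the long-term blood stem cells, or as GMPs, the granulocyte-monocyte progenitors that come later on the myeloid path. All mice were C57BL/6. The AML1-ETO groups carry the genotype label Runx1-Runx1t1, a fusion gene that in people arises from a chromosome translocation in acute myeloid leukaemia, and the control groups are labelled wild type. The labels list 4 intraperitoneal doses of poly(I:C), of 5 mg/kg each and given on alternate days, for all 14 samples, controls included. In the AML1-ETO mice it switches on Mx1-Cre, a recombinase under an interferon-responsive promoter that is also active outside blood stem cells. There were 3 AML1-ETO and 4 control libraries of each cell type. The labels do not state the age of the mice, whether the controls carry Mx1-Cre, or whether each library came from its own mouse. The p-values therefore measure the spread between these libraries, which may be technical.

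Ikaros proteins bind DNA through N-terminal zinc fingers and pair with each other through C-terminal ones, so the members present in a cell can form mixed dimers. IKZF1 (Ikaros) is needed for lymphoid development and is present in blood stem cells, IKZF2 (Helios) is known from stem cells and regulatory T cells, IKZF3 (Aiolos) from B cells, plasma cells and other mature lymphocytes, and IKZF5 (Pegasus) is the most divergent member. BCL11A is required for B cell development and silences embryonic and fetal globin genes in red cell precursors, while BCL11B sets T cell identity. BACH1 and BACH2 pair with small MAF proteins and repress genes of heme, iron and antioxidant metabolism until heme binds and inactivates them. BACH2 also holds back plasma cell differentiation and favours B cell over myeloid development.

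Upstream sequences are shown for Bach2 and Bcl11a, since Bach2 was the member called in GMPs and Bcl11a a called member in LT-HSCs with a window in the table of promoters used. These windows come from RefSeq on GRCm38.p6, the build of mm10, and hold up to 250 bases before an annotated transcript start. A window was found for 6 of the 8 members, Ikzf1, Ikzf5, Bcl11a, Bcl11b, Bach1 and Bach2. Both sequences run 5′ to 3′ on the plus strand. Capitals mark the RUNX core TGTGG in Bach2 and the Ikaros core TGGGAA in Bcl11a. The Bach2 window is chr4:32417185-32417434, inside the annotated gene span, with no base in an annotated exon. The Bcl11a window is chr11:24080445-24080669, 225 bases that also lie inside the annotated gene span, after the first exons, and stop before the next annotated exon base.
Bach2: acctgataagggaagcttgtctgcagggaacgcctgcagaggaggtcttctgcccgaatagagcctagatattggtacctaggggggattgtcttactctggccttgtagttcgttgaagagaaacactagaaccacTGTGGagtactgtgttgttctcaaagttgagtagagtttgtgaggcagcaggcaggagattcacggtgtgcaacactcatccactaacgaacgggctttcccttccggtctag
Bcl11a: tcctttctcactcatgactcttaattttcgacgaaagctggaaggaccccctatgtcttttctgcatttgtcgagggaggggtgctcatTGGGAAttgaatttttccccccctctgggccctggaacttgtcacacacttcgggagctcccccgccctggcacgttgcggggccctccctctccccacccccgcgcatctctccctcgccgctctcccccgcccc

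The RUNX core in the Bach2 window begins at position 138, 113 bases before the start, and the Ikaros core in the Bcl11a window begins at position 90, 161 bases before the start. Motifs were searched on both strands. The RUNX core TGTGG stood in 49.3% of 32851 windows of the same kind, and a longer RUNX form that contains it, TGTGGT, in 14.05% of them. The Ikaros core TGGGAA was in 21.6% of windows, and the element shared by BACH and AP-1 factors, TGANTCA, in 6.75%. A match of these letters describes the window and does not show that a factor binds there. Among the other members, the Bach1 window held a RUNX core on the minus strand, 199 bases before the start. Before the first annotated exon base the Bcl11b window had 62 bases and the Ikzf5 window 0, so nothing is said here about motifs in either.

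The libraries held 13210952 to 19403864 counts. Runx1t1, the part of the fusion that normal bone marrow expresses little, was read first as a check of the labels. In units of CPM, the count of a gene scaled to library size with TMM factors, AML1-ETO LT-HSCs had 85.5, 164 and 125, while their controls had 3.95, 0, 18.1 and 11.1. In GMPs it was 26.0, 26.3 and 45.6 CPM against 1.69 to 2.73 CPM. The fusion groups lay above their controls in both cell types. The log2 fold change was 4.00 ± 1.08 (SE; adjusted p = 0.0468, edgeR) in LT-HSCs and 3.82 ± 0.32 (adjusted p = 0.00162) in GMPs. The LT-HSC call was lost when any AML1-ETO LT-HSC library or control LT-HSC library 1 or 4 was left out, with adjusted p up to 0.176. Runx1, the other part of the fusion, rose in LT-HSCs (1.21 ± 0.22, adjusted p = 0.0108, and 0.0655 without AML1-ETO LT-HSC library 2) and was at 0.11 ± 0.12 in GMPs (adjusted p = 0.660).

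Some libraries stood apart in markers of other cells, which bears on the lymphoid members below. The 12 GMP markers summed to 21973 to 36102 CPM in GMPs, 197 to 559 CPM in control LT-HSCs and 2056 to 2378 CPM in AML1-ETO LT-HSCs. In the last group 6 of 11 tested were called higher and 1 lower than in controls. The 12 LT-HSC markers summed to 607 to 1791 CPM in control and 1064 to 1319 CPM in AML1-ETO LT-HSCs. With AML1-ETO, 3 of 12 were called lower there and none higher. In GMPs they summed to 49.4 to 59.5 CPM in controls and 53.6 to 560 CPM with AML1-ETO. Of 11 tested in GMPs, 4 were called higher and none lower. In control mice 12 of 12 GMP markers were called higher and 12 of 12 LT-HSC markers lower in GMPs. AML1-ETO GMP library 3 had the 560 CPM of LT-HSC markers, against 53.6 and 96.3 CPM in libraries 2 and 1. The 13 B and plasma cell markers, chiefly immunoglobulin genes, summed to 12962 to 76501 CPM in control LT-HSCs, all 13 detected, and to 115 to 656 CPM in AML1-ETO LT-HSCs, with Ms4a1 and Blk at 0. The 10 mast cell and basophil markers summed to 17.0 to 71.7 CPM in control and 8608 to 11319 CPM in AML1-ETO LT-HSCs, and to 532 to 726 against 2519 to 3609 CPM in GMPs. The 10 erythroid markers summed to 974 to 2674 against 418 to 503 CPM in LT-HSCs, and in AML1-ETO GMPs to 4633, 62.3 and 1549 CPM in libraries 1, 2 and 3 against 20.3 to 39.8 CPM. In bulk RNA, fewer cells of a type and less RNA per cell cannot be told apart.

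Levels of different genes were compared as CPM per kilobase of exon. By that measure Ikzf1 was the highest of the 8 in each of the 4 groups, with 56.5 ± 13.7 (SD, n = 4) in control and 55.7 ± 6.89 (n = 3) in AML1-ETO LT-HSCs, and 49.7 ± 2.12 and 44.8 ± 5.63 in the GMPs of these genotypes. In control LT-HSCs, Bcl11a (15.5 ± 2.69 CPM per kilobase) and Bach1 (13.9 ± 2.61) came next with overlapping ranges, then Ikzf2 (4.79 ± 1.63), Bcl11b, Ikzf3, Bach2 and Ikzf5, whose neighbouring ranges overlapped. In AML1-ETO LT-HSCs the second place went to Ikzf2, at 33.3 ± 9.48 CPM per kilobase, ahead of Bach1 at 21.2 ± 5.72 with an overlapping range, and Bcl11a came after both at 4.86 ± 1.19. In GMPs of both genotypes Ikzf1 was followed by Bach1, and Bcl11b was last, at 0 in every control GMP library. Scaling by the longest transcript instead of all exons exchanged the last ranks of Ikzf3 and Bcl11b in AML1-ETO LT-HSCs and left the other ranks in place. It made the ranges of Ikzf1 and Ikzf2 in that group overlap and separated those of Ikzf2 and Bach1 (means of 41.7 and 22.3). In control LT-HSCs it separated Bcl11a from Bach1 (34.2 and 14.7). Some neighbouring ranges in GMPs changed as well.

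**Figure D1:**
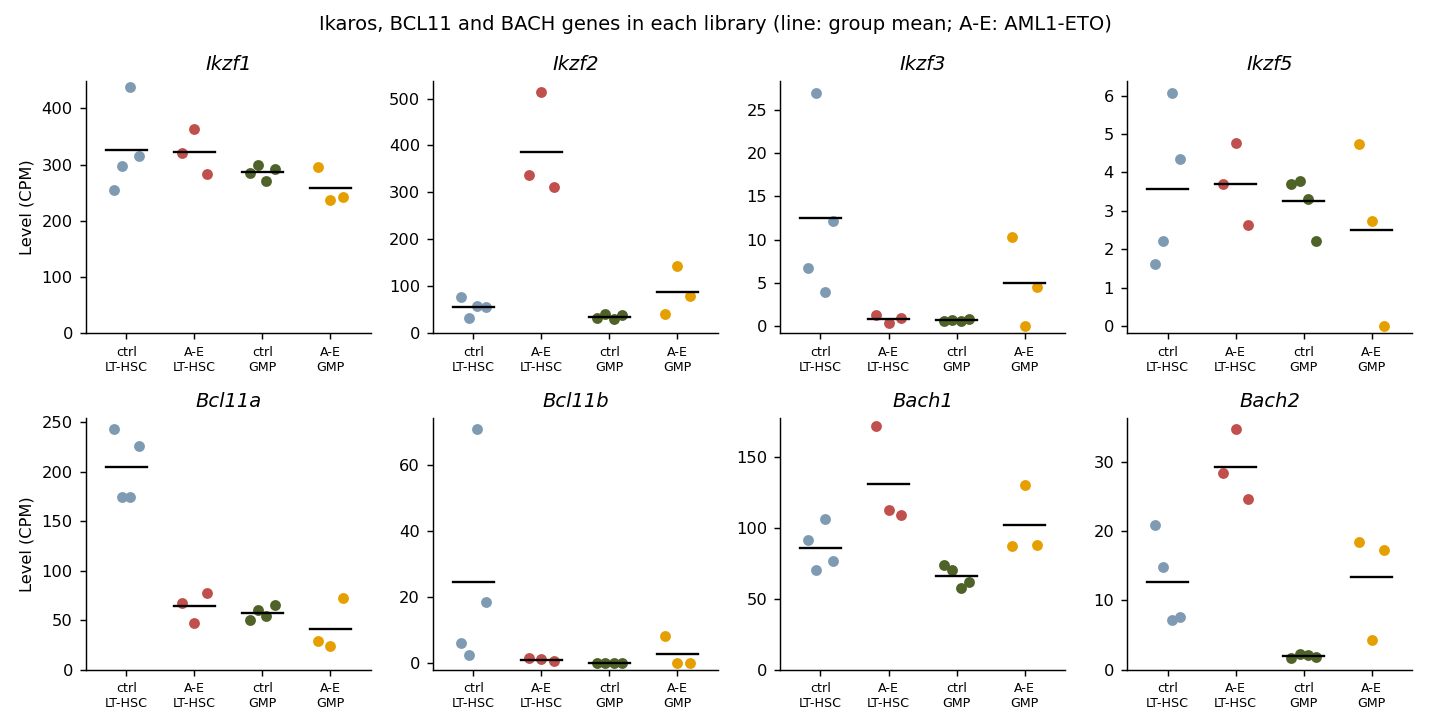
Level of each of the 8 genes (CPM, linear axis that includes 0, own scale per panel) in every library, in the order control LT-HSC, AML1-ETO LT-HSC, control GMP, AML1-ETO GMP; points are libraries and the black line is the group mean. The 3 AML1-ETO LT-HSC points of Ikzf2 stand at 311 to 513 CPM, above every other library, and the 4 control LT-HSC points of Bcl11a at 174 to 244 CPM.

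In LT-HSCs, 1 of the 8 members was called higher with AML1-ETO, Ikzf2, and 3 were called lower, Bcl11a, Bcl11b and Ikzf3. A call is an adjusted p under 0.05 in edgeR's quasi-likelihood test, with adjustment over all 14589 genes tested there. Of those genes 7.59% were called higher and 4.69% lower. The libraries of the 2 genotypes did not overlap for 6 members, the 4 called ones and Bach1 and Bach2, against 28.5% of all genes tested. In GMPs 1 of the 7 members tested was called, Bach2, which was higher, and none was called lower, against 5.47% and 3.96% of 13981 genes. At an unadjusted p under 0.05, whose share of all genes was not counted, the GMP calls would also hold Ikzf2 and Bach1. None would be lower. DESeq2 called the same 3 higher and none lower. Non-overlap held for Bach1 and Bach2 there, against 26.7% of all genes. Bcl11b did not pass the GMP filter on low counts, since only 1 of the 7 libraries held any of its reads.

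**Figure D2:**
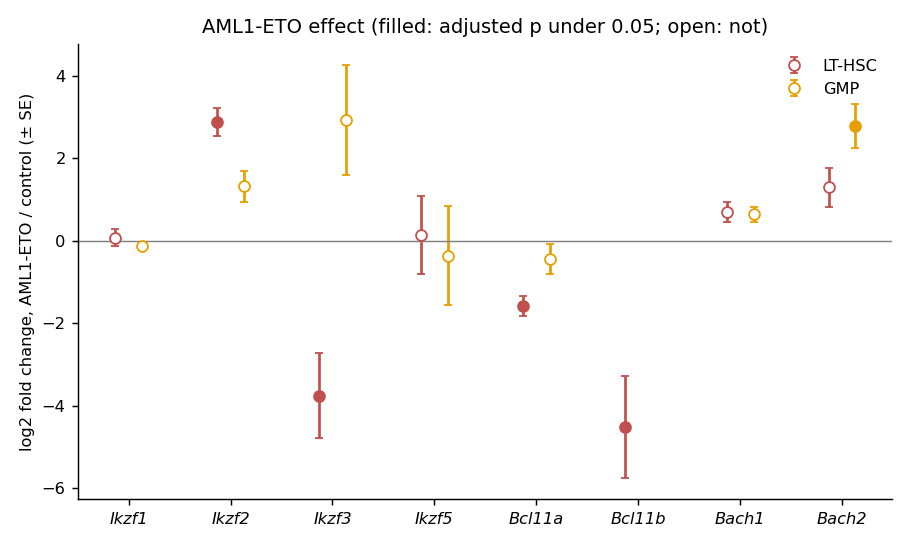
Log2 fold change of AML1-ETO over control (± SE, edgeR) for each gene in LT-HSCs and GMPs; filled points passed an adjusted p of 0.05, and Bcl11b has no GMP point because it was not tested there. Ikzf2 and Bach2 lie above 0 in both cell types, and Ikzf3 lies at -3.76 in LT-HSCs and 2.94 in GMPs.

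Ikzf1 (chromosome 11, 11685003 to 11772926 on mm10), the founding member, did not pass the test in either cell type. In LT-HSCs it was at 254, 297, 439 and 315 CPM in controls and 319.7, 363 and 283 CPM with AML1-ETO, which lie within the control range. Its log2 fold change there was 0.08 ± 0.21 (adjusted p = 0.896, edgeR), whose sign changed with the scaling (-0.058 with upper-quartile factors). In GMPs it was at 286, 299, 271 and 292 CPM in controls and 296, 237 and 243 CPM with AML1-ETO, with 1 of the 3 fusion libraries inside the control range, and the log2 fold change was -0.13 ± 0.10 (adjusted p = 0.506). Over the 14 libraries the lowest and highest level of Ikzf1 were 237 and 439 CPM.

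Ikzf2 (chromosome 1, 69531214 to 69687245), the Helios gene, rose with AML1-ETO in LT-HSCs. Its level was 77.2, 31.0, 58.5 and 55.6 CPM in control LT-HSCs and 336, 513 and 311 CPM in AML1-ETO LT-HSCs. The lowest fusion library was above the highest control. This was a 7.38-fold rise, or 2.88 ± 0.33 on the log2 scale (adjusted p = 0.00209, edgeR), and it stayed called when any 1 of the 7 libraries was left out, with adjusted p from 0.00347 to 0.0152. Control GMPs held 32.9, 40.9, 29.2 and 37.8 CPM, and AML1-ETO GMPs 39.9, 142 and 78.0 CPM. AML1-ETO GMP library 1 lay inside the control range and the others above it. The GMP log2 fold change was 1.32 ± 0.37 (adjusted p = 0.0644), and 1.35 (adjusted p = 0.00532) by DESeq2. It was 1.65 (adjusted p = 0.00939) without AML1-ETO GMP library 1 and 0.75 (adjusted p = 0.0951) without library 2, and the adjusted p reached 0.195 without control GMP library 3.

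The 2 AML1-ETO effects on Ikzf2 differed by -1.49 ± 0.51 on the log2 scale, GMP minus LT-HSC, which did not pass the test of that difference (adjusted p = 0.104, edgeR on all 14 libraries). Without AML1-ETO GMP library 2 the difference was -2.05 (adjusted p = 0.0177), and without any 1 other library it was -1.69 to -1.15, not called. Across cell types, Ikzf2 was the one member called in AML1-ETO mice, where GMPs were lower than LT-HSCs by -2.16 ± 0.40 on the log2 scale (adjusted p = 0.00159). In control mice the same contrast was -0.66 ± 0.34 (adjusted p = 0.168). These contrasts share libraries with the ones within each cell type. In every AML1-ETO LT-HSC library the mast cell and basophil markers were also high (8608 CPM or more), and their part in the Ikzf2 result was not tested.

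The make-up of the Ikaros family moved with Ikzf2. Ikzf2 made up 12.8, 4.64, 6.10 and 7.79% of the summed CPM per kilobase of the 4 Ikaros members in control LT-HSCs, a mean of 7.85% ± 3.57 (SD, n = 4), and 34.0, 41.0 and 35.1% in AML1-ETO LT-HSCs, a mean of 36.7% ± 3.75 (n = 3). The shares did not overlap. In GMPs its share was 5.66% ± 0.575 in controls and 6.06, 22.8 and 13.6% in AML1-ETO libraries, of which library 1 lay within the control range. Ikzf1 made up the largest share in every library, from 58.2% in AML1-ETO LT-HSC library 2 to 93.7% in a control GMP library.

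**Figure D3:**
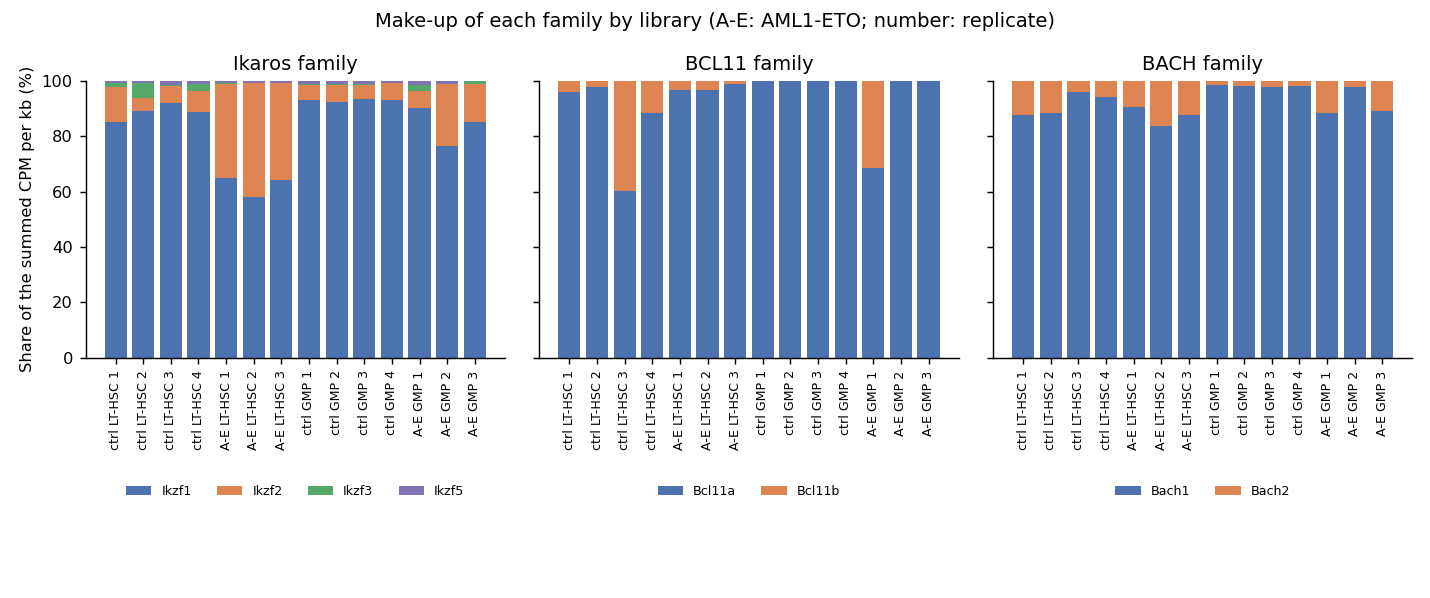
Share of each gene in the summed CPM per kilobase of its family (percent, stacked bars from 0 to 100), one bar per library. The Ikzf2 share stands at 34.0 to 41.0% in the 3 AML1-ETO LT-HSC libraries and at 4.64 to 12.8% in the 4 control ones; Bcl11b is a visible share in few libraries.

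Ikzf3 (chromosome 11, 98464902 to 98546031), the Aiolos gene, fell with AML1-ETO in LT-HSCs from a level that varied between controls. Control LT-HSCs held 6.74, 27.0, 3.99 and 12.1 CPM and AML1-ETO LT-HSCs 1.31, 0.307 and 0.916 CPM. Every fusion library lay below every control. The log2 fold change was -3.76 ± 1.03 (adjusted p = 0.0488, edgeR). The call was lost without control LT-HSC library 2 (-3.08, adjusted p = 0.111), control LT-HSC library 4 or any AML1-ETO LT-HSC library, with adjusted p up to 0.198. Control LT-HSC library 2, the highest in Ikzf3, also had the highest sum of B and plasma cell markers (76501 CPM, where the rest of its group had 12962 to 17469.5 CPM). The part of those cells in the fall of Ikzf3 was not tested.

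In GMPs Ikzf3 was low in all 4 controls, 0.584 to 0.756 CPM, and stood at 10.3, 0 and 4.47 CPM with AML1-ETO. Libraries 1 and 3 were above every control, and library 2 held no read of it. The log2 fold change was 2.94 ± 1.34 (adjusted p = 0.228), 3.52 (adjusted p = 0.00857) without AML1-ETO GMP library 2 and 1.80 (adjusted p = 0.400) without library 1. Without any 1 control GMP library the adjusted p was 0.398 to 0.440. AML1-ETO GMP library 2 also had the lowest sum of B and plasma cell markers among AML1-ETO GMPs, 43.9 CPM against 254 and 445 CPM in libraries 1 and 3. Control GMPs, low in Ikzf3, had 155 to 185 CPM of these markers. The AML1-ETO effect on Ikzf3 differed between the cell types by 6.80 ± 1.86 on the log2 scale, GMP minus LT-HSC (adjusted p = 0.0434, edgeR), 1 of the 2 members of 8 called higher for that difference. Of the 16116 genes tested there 3.43% were called higher and 2.91% lower. No member was called lower by edgeR or DESeq2. In that direction 1, Ikzf2, had an unadjusted p under 0.05, a threshold whose share of all genes was not counted. The Ikzf3 difference was lost when any 1 of 11 of the 14 libraries was left out, and with the replicate number within each genotype as a block (adjusted p = 0.308). In control mice Ikzf3 was lower in GMPs than in LT-HSCs by -4.27 ± 1.26 (adjusted p = 0.0240), a call lost without control LT-HSC library 2 or any 1 control GMP library (adjusted p 0.0598 to 0.0691).

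Ikzf5 (chromosome 7, 131388652 to 131410521), the Pegasus gene, was low in all groups. Its level ran from 1.63 to 6.08 CPM in control LT-HSCs, 2.63 to 4.76 CPM in AML1-ETO LT-HSCs, 2.21 to 3.77 CPM in control GMPs and 0 to 4.73 CPM in AML1-ETO GMPs, and all 4 ranges overlapped. The log2 fold changes were 0.15 ± 0.95 in LT-HSCs (adjusted p = 0.958, edgeR) and -0.36 ± 1.20 in GMPs (adjusted p = 0.894). The exons of Ikzf5 share 4652 bases with Pstk on the other strand. Without a stated strand setting it is not known how reads over these bases were counted. This limits the level of Ikzf5 and its rank per kilobase. Pstk stood at 8.49 to 25.9 CPM over the 14 libraries. The remaining Ikaros gene, Ikzf4, had reads in 3 of 4 control LT-HSC libraries (9.75, 3.64 and 5.90 CPM) and in no other library. It was at least 74.3-fold lower in AML1-ETO LT-HSCs, against a floor of 3 counts over the group, and did not pass the test (adjusted p = 0.0873). That bound was 47.3 to 53.3-fold without any 1 AML1-ETO LT-HSC library and 49.0-fold without control LT-HSC library 1.

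Bcl11a (chromosome 11, 24078056 to 24174123) fell with AML1-ETO in LT-HSCs to about its GMP level. Control LT-HSCs had 244, 174, 175 and 226 CPM of it, and the AML1-ETO ones 67.2, 47.0 and 77.9 CPM. The 2 groups did not overlap. The fall was 3.01-fold, -1.59 ± 0.24 on the log2 scale (adjusted p = 0.00617, edgeR), and stayed called when any 1 library was left out (adjusted p 0.00564 to 0.0406). Control GMPs held 50.1, 60.5, 54.2 and 65.0 CPM, a range that overlapped that of AML1-ETO LT-HSCs. The sum of the GMP markers was higher in the same AML1-ETO LT-HSC libraries (2056 to 2378 CPM, against 559 CPM or less in controls and 21973 CPM or more in GMPs). Of 11 tested, 6 were called higher and 1, Prtn3, lower, and Elane was at 0 in AML1-ETO LT-HSCs. The B and plasma cell markers were lower there (115 to 656 against 12962 to 76501 CPM). The part of either set of cells in the Bcl11a result was not tested. In control mice Bcl11a was thus lower in GMPs than in LT-HSCs by -1.84 ± 0.30 (adjusted p = 0.000569), while in AML1-ETO mice the same contrast was -0.62 ± 0.33 (adjusted p = 0.209).

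AML1-ETO GMPs held 28.6, 24.0 and 72.1 CPM of Bcl11a. Libraries 1 and 2 were below every control GMP library and library 3 above them all. The log2 fold change in GMPs was -0.45 ± 0.36 (adjusted p = 0.517, edgeR), -0.18 (adjusted p = 0.757) without library 2, and -1.12 (adjusted p = 0.0129) without library 3, which also had the highest LT-HSC marker sum among GMPs. The contrast of GMPs with LT-HSCs in AML1-ETO mice moved to -1.27 (adjusted p = 0.00255) without the same library and to -0.34 (adjusted p = 0.520) without library 2. The part of stem cells in that library was not tested. The AML1-ETO effect in GMPs minus that in LT-HSCs was 1.22 ± 0.44 (adjusted p = 0.124), 1.49 (adjusted p = 0.0417) without AML1-ETO GMP library 2 and 0.56 (adjusted p = 0.319) without library 3.

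Bcl11b (chromosome 12, 107910403 to 108003602), the T cell member, fell with AML1-ETO in LT-HSCs, from levels that ranged widely in controls. Control LT-HSCs held 6.10, 2.50, 70.9 and 18.3 CPM and AML1-ETO LT-HSCs 1.37, 0.997 and 0.550 CPM. Library 3 alone gave 1086 of the 1498 control reads. The groups did not overlap, and the log2 fold change was -4.53 ± 1.24 (adjusted p = 0.0479, edgeR). Without control LT-HSC library 3 it was -3.10 (adjusted p = 0.0696). The call was also lost without control LT-HSC library 4 or any 1 AML1-ETO LT-HSC library (adjusted p 0.0791 to 0.189). Library 3 had the highest sum of the 13 T cell markers too, 261 CPM where the rest of its group had 55.6 to 87.9 CPM, and 12.9 to 25.7 CPM with AML1-ETO, and the highest sum of the 11 NK and innate lymphoid markers, 375 against 119 to 145 CPM. It had the lowest sum of LT-HSC markers of that group, 607 CPM against 1009 to 1791 CPM. In control LT-HSCs 7 of the 13 T cell markers were detected, while Cd3e, Cd3g, Cd8a, Cd5, Trac and Cd6 were at 0. In AML1-ETO LT-HSCs, where the sum was lower, all 13 were detected. The part of T or innate lymphoid cells in the result was not tested.

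Control GMPs held no Bcl11b read in any of the 4 libraries. Against the floor of 3 counts over the group, Bcl11b was at least 569.9-fold lower in control GMPs than in control LT-HSCs (adjusted p = 0.00803, edgeR). Without control LT-HSC library 3 that bound was 209-fold, and the call held (adjusted p = 0.0135). AML1-ETO GMPs held 8.08, 0 and 0 CPM, 123 reads in all, from library 1. That library also had the highest sum of T cell markers among AML1-ETO GMPs (75.6, 11.2 and 38.4 CPM in libraries 1, 2 and 3). The test of the difference between the cell types called Bcl11b higher (adjusted p = 0.0371), with no fold because 1 of the 4 groups was at 0. Without AML1-ETO GMP library 1 the adjusted p was 1, and without any of 9 other libraries 0.0501 to 0.120. With the replicate number within each genotype as a block it was 0.316. Bcl11b made up 2.27 to 39.7% of the summed CPM per kilobase of the BCL11 pair in control LT-HSCs, and 1.13 to 3.33% in AML1-ETO LT-HSCs.

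**Figure D4:**
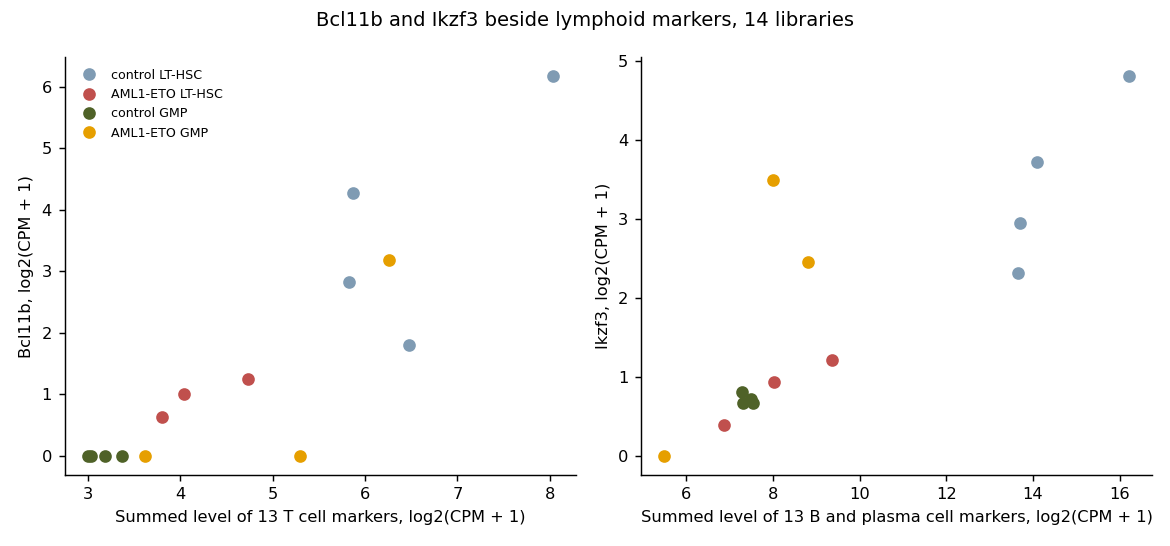
Bcl11b against the summed level of 13 T cell markers (left) and Ikzf3 against that of 13 B and plasma cell markers (right), both axes log2(CPM + 1), one point per library coloured by group. Control LT-HSC library 3 is the highest point of the left panel and control LT-HSC library 2 that of the right, and the AML1-ETO LT-HSC points lie lower on both axes than the control LT-HSC points.

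Bach1 (chromosome 16, 87698945 to 87733346), the heme-sensing repressor found in most tissues, was higher in every AML1-ETO library than in every control of its cell type, without passing the test in either. LT-HSC controls held 91.3, 70.0, 106 and 76.7 CPM and AML1-ETO LT-HSCs 172, 112 and 109 CPM, and the log2 fold change was 0.70 ± 0.24 (adjusted p = 0.0972, edgeR). GMP controls held 74.0, 70.5, 57.4 and 62.2 CPM and AML1-ETO GMPs 87.2, 130.1 and 87.8 CPM, with 0.64 ± 0.17 (adjusted p = 0.0570). The GMP value passed without AML1-ETO GMP library 1 (0.73, adjusted p = 0.0347) or library 3 (0.73, adjusted p = 0.0446), with median-of-ratios scaling (0.67, adjusted p = 0.0439) and by DESeq2 (0.67, adjusted p = 0.00485). It was 0.42 (adjusted p = 0.0614) without AML1-ETO GMP library 2, and its adjusted p was 0.122 to 0.176 without any 1 control. The effects in the 2 cell types differed by 0.02 ± 0.30 (adjusted p = 1).

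Bach2 (chromosome 4, 32238804 to 32586108) rose with AML1-ETO in GMPs. Control GMPs held 1.66, 2.26, 2.08 and 1.80 CPM and AML1-ETO GMPs 18.4, 4.25 and 17.3 CPM. All 3 fusion libraries were above the controls, and library 2 was nearest to them. The rise was 6.90-fold, 2.79 ± 0.54 on the log2 scale (adjusted p = 0.0233, edgeR). It stayed called without any 1 AML1-ETO library and was lost without any 1 of the 4 control GMP libraries, with log2 fold changes of 2.72 to 2.87 and adjusted p of 0.0763 to 0.0899. DESeq2 gave an adjusted p of 1.42e-05. AML1-ETO GMP libraries 1 and 3, the higher ones in Bach2, were also higher than library 2 in erythroid, B cell, T cell and LT-HSC markers. The LT-HSC markers summed to 96.3, 53.6 and 560 CPM in libraries 1, 2 and 3. Library 2, with 11.2 CPM of T cell markers, 43.9 CPM of B and plasma cell markers and 62.3 CPM of erythroid markers, held 4.25 CPM of Bach2. In control GMPs these markers summed to 7.01 to 9.35, 155 to 185 and 20.3 to 39.8 CPM. The part of cells of these types in the Bach2 result was not tested.

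In LT-HSCs Bach2 stood at 20.8, 14.8, 7.12 and 7.67 CPM in controls and at 28.3, 34.7 and 24.7 CPM with AML1-ETO. The groups did not overlap, and the log2 fold change of 1.296 ± 0.470 did not pass the test (adjusted p = 0.115, edgeR). It did without control LT-HSC library 1, the highest control (1.66, adjusted p = 0.0428), and without any 1 other library it was 1.09 to 1.41, with adjusted p up to 0.390. The difference between the cell types was 1.56 ± 0.74 (adjusted p = 0.251). In control mice Bach2 was lower in GMPs than in LT-HSCs by -2.70 ± 0.52 (adjusted p = 0.00191), and in AML1-ETO mice by -1.13 ± 0.56 (adjusted p = 0.170). Bach2 made up 1.82% ± 0.347 of the BACH pair by CPM per kilobase in control GMPs (n = 4) and 11.6, 1.99 and 10.9% in AML1-ETO GMPs, of which library 2 lay within the control range.

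**Figure D5:**
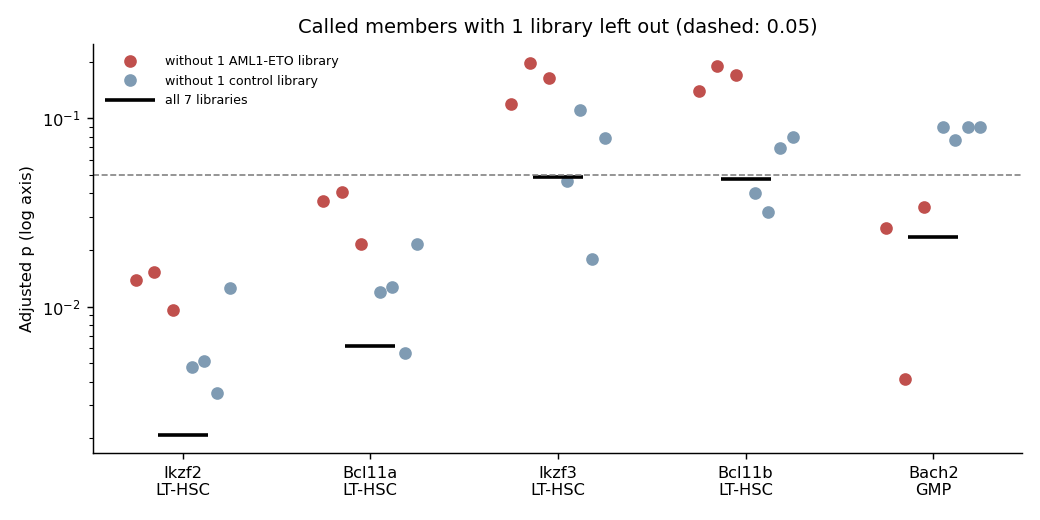
Adjusted p (log axis) of the 5 called AML1-ETO results when 1 library was left out; red points lack an AML1-ETO library, blue points a control library, the black bar is the value with all 7 libraries and the dashed line is 0.05. All points of Ikzf2 and Bcl11a lie under the line, 5 of 7 points of Ikzf3 and of Bcl11b lie above it, and the 4 points of Bach2 above it are those without a control.

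In control mice 4 of the 8 members were called lower in GMPs than in LT-HSCs, Bcl11a, Bcl11b, Bach2 and Ikzf3, and none was called higher, where 10.6% of 16116 genes were called lower and 13.9% higher. Ikzf1, Ikzf2, Ikzf5 and Bach1 did not pass, with log2 fold changes of -0.19 ± 0.16, -0.66 ± 0.34, -0.14 ± 1.07 and -0.39 ± 0.20. None of these 4 passed at an unadjusted p under 0.05 either, while DESeq2 called Bach1 lower (-0.55, adjusted p = 0.0371) and no member higher. In AML1-ETO mice 1 of 8 was lower, Ikzf2, and none was higher, where 9.15% were called lower and 12.6% higher. No other member had an unadjusted p under 0.05 there, and DESeq2 also called Ikzf2 alone. The values of Ikzf3 and Bcl11b were above 0 in AML1-ETO mice, 2.53 ± 1.35 and 1.46 ± 1.80, without passing the test. These comparisons share libraries with those of AML1-ETO against control.

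Genes for the proteins through which Ikaros and BCL11 factors repress others were read next. Of 17 that encode subunits of the NuRD, SIN3 and CtBP complexes, 1 rose in LT-HSCs, Chd3, a NuRD remodeller (590 ± 72.7 CPM, n = 3, against 232 ± 55.6, n = 4; log2 fold change 1.43, adjusted p = 0.00825, edgeR), and 1 fell, the histone-binding subunit Rbbp7 (124 ± 1.04 against 214 ± 29.0 CPM; -0.70, adjusted p = 0.0295). In GMPs none rose and Rbbp7 fell (-0.59, adjusted p = 0.0314). Over all genes, 7.59% were called higher and 4.69% lower in LT-HSCs, and 5.47% and 3.96% in GMPs. The median log2 fold change of the 17 was -0.04 in LT-HSCs and -0.03 in GMPs, beside 0.03 and -0.03 over all genes tested. The 5 subunits of the cereblon ubiquitin ligase, which degrades IKZF1 and IKZF3 in human cells given thalidomide analogs, held no call in either cell type. An unadjusted p under 0.05 was found for 2 of the 5 in LT-HSCs and 3 of the 5 in GMPs. How many of all genes stood under that unadjusted threshold was not counted, so no result is read from it. Chd3 lost its call without AML1-ETO LT-HSC library 2 (adjusted p = 0.0593), and Rbbp7 lost its LT-HSC call without any 1 AML1-ETO LT-HSC library (up to 0.147) and its GMP call without any 1 control GMP library or AML1-ETO GMP library 3 (up to 0.110).

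Early lymphoid genes tied to Ikaros moved in both directions in LT-HSCs. Of 15 tested, 2 rose, the cytokine receptor Flt3 (2.33 ± 0.36, adjusted p = 0.00682, edgeR) and the chromatin organiser Satb1 (2.28 ± 0.39, adjusted p = 0.00906). In 3 the level fell: the surrogate light chain gene Igll1, at 24.2 ± 13.7 CPM in controls and 0 in every AML1-ETO library (adjusted p = 0.00348), the B cell adaptor Blnk (-5.22 ± 1.39, adjusted p = 0.0445) and the interleukin-7 receptor Il7r (-4.04 ± 0.68, adjusted p = 0.00887). The median of the 15 was -1.88, beside 0.03 over all genes. Of these, Igll1, Blnk and Il7r fell together with the B and plasma cell markers, of which 5 of 11 tested fell and none rose. Blnk lost its call without any 1 of the 7 libraries (up to 0.162), Il7r without AML1-ETO LT-HSC library 1 or 2 (up to 0.0678) and Satb1 without library 2 of that group (0.0606). In GMPs 1 of 9 was called, Rag2, at 0.826 ± 0.0714 CPM in controls and 0 with AML1-ETO (adjusted p = 0.0267, lost without any 1 control, up to 0.0998), and the median was 0.11. Of 5 Notch target genes tested in LT-HSCs, 1 fell, Hes1 (443 ± 282 to 9.85 ± 11.2 CPM; -5.38 ± 1.05, adjusted p = 0.0148), which did not pass without library 2 or 3 of the AML1-ETO LT-HSCs (up to 0.0747), and the median of the 5 was -2.69. None of 4 was called in GMPs, where 2 had an unadjusted p under 0.05, a threshold whose share of all genes was not counted.

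Genes tied to BCL11A and BCL11B included Tcf7, the T cell factor gene, which moved in opposite directions. In LT-HSCs it fell from 199.6 ± 233 to 1.64 ± 0.597 CPM (-6.80 ± 0.98, adjusted p = 0.00522, edgeR), and in GMPs it rose from 2.55 ± 1.37 to 12.7 ± 2.42 CPM (2.34 ± 0.51, adjusted p = 0.0290, lost without any 1 control GMP library, up to 0.0914). The globin repressor Zbtb7a rose in LT-HSCs (0.97 ± 0.16, adjusted p = 0.00755, and 0.0534 without AML1-ETO LT-HSC library 2), and Id2, an inhibitor of E proteins, rose in GMPs (2.66 ± 0.64, adjusted p = 0.0390, lost without any 1 control GMP library, up to 0.140). In all, 1 of 8 rose and 1 fell in LT-HSCs, and 2 of 6 rose and none fell in GMPs, with medians of 0.04 and 0.72. As with Bcl11b, the T cell markers were lower in AML1-ETO LT-HSCs, where 2 of 6 tested fell. In GMPs none of 5 was called. There 4 of the 5 were higher at an unadjusted p under 0.05, a threshold whose share of all genes was not counted.

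The partners and competitors of the BACH factors followed. Of 8 genes for small MAF partners, CNC activators and their inhibitor Keap1, none was called in LT-HSCs, nor had any an unadjusted p under 0.05. In GMPs 1 rose, the partner Maff (50.7 ± 3.004 against 18.3 ± 4.18 CPM; 1.48 ± 0.20, adjusted p = 0.00929, edgeR). Nfe2l3 was at 0 in the AML1-ETO GMP libraries against 0.722 ± 0.217 CPM in controls (adjusted p = 0.0308, edgeR). With 1 library left out, Nfe2l3 passed the low-count filter in only 4 of the 7 fits. Of these 4 it lost its call in 1, without control GMP library 3 (adjusted p = 0.0985). The medians of the 8 were 0.08 and 0.05. Of 14 tested genes of heme, iron and antioxidant metabolism, most of them known BACH1 targets, 1 fell in LT-HSCs, the transferrin receptor Tfrc (-2.96 ± 0.46, adjusted p = 0.00670, and 0.0564 without AML1-ETO LT-HSC library 2). Of 14 in GMPs, 2 rose: Hmox1, heme oxygenase and the best known BACH1 target (2.89 ± 1.47 to 180 ± 223 CPM, with 25.4 to 436 CPM across the AML1-ETO libraries; 5.98 ± 0.98, adjusted p = 0.0159), and the biliverdin reductase Blvrb (2.04 ± 0.30, adjusted p = 0.0113). Hmox1 was lost without any 1 control GMP library (up to 0.0755) and was 4.17 without AML1-ETO GMP library 1, and Blvrb was lost without control GMP library 1, 3 or 4 (up to 0.0580). Erythroid markers were higher in the same AML1-ETO GMP libraries (4633, 62.3 and 1549 CPM, against 20.3 to 39.8 CPM in controls) and lower in AML1-ETO LT-HSCs, where 5 of 10 fell, and their part in these results was not tested. The medians were -0.49 in LT-HSCs and 0.26 in GMPs.

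Heme synthesis genes were lower in LT-HSCs in part. Among them, the enzymes Cpox (-2.35 ± 0.29, adjusted p = 0.00271, edgeR), Alad (-1.55 ± 0.29, adjusted p = 0.0126) and Fech (-1.26 ± 0.26, adjusted p = 0.0185) fell and Ppox rose (0.66 ± 0.18, adjusted p = 0.0499). Cpox stayed called when any 1 library was left out. Alad and Fech were lost without any 1 AML1-ETO LT-HSC library (up to 0.109), and Ppox without any of 6 libraries (up to 0.186). The erythroid markers were lower in the same libraries, with 5 of 10 called lower, and their part was not tested. In GMPs the erythroid form of the first enzyme, Alas2, rose (0.410 ± 0.110 to 58.7 ± 68.7 CPM; 7.14 ± 1.36, adjusted p = 0.0228), together with the globin genes Hbb-bs and Hba-a1 among 9 erythroid markers tested. Its call was lost without any 1 control GMP library (up to 0.0914), and it was 0.916 CPM in the lowest AML1-ETO library.

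Of 8 regulators of the plasma cell and B cell path around BACH2, 1 fell in LT-HSCs, Irf4, which drives plasma cell formation (65.8 ± 67.6, with 0 to 160 CPM across controls, to 0.290 ± 0.438 CPM; -7.67 ± 2.11, adjusted p = 0.0488, edgeR). That call was lost without any 1 AML1-ETO LT-HSC library or control LT-HSC library 1, 2 or 4 (up to 0.208), and the plasma cell gene Jchain fell beside it (-6.26, adjusted p = 0.00838, and 0.0627 without AML1-ETO LT-HSC library 2). In GMPs 2 of 5 rose, the germinal centre repressor Bcl6 (7.64 ± 1.23 to 18.8 ± 0.998 CPM; 1.32, adjusted p = 0.0206) and the myeloid factor Cebpb (51.2 ± 9.09 to 110.1 ± 41.7 CPM; 1.12, adjusted p = 0.0295), both lost without any 1 control GMP library (up to 0.108). The medians were -0.34 and 0.56.

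Genes most like each member were found by Pearson's r of log2 CPM over the 14 libraries among 9592 genes of at least 10 CPM, as a description, since the libraries share their groups. Nearest to Ikzf2 were Chst15 (r = 0.986, Spearman's rho 0.965), Ppp1r12c (0.977) and Sox13 (0.973). Chst15 went from 38.7 to 416 CPM in LT-HSCs and from 24.0 to 63.4 CPM in GMPs, as group means. Nearest to Bcl11a were Itih5 (0.966), Mmp14 (0.957) and Xk (0.957), and to Bach2 Tmem140 (0.980), Slc2a3 (0.967) and Ddx60 (0.964). Ikzf3 lay nearest to Rusc2 (0.952), Aldh1a1 (0.939) and Paqr9 (0.935), Bcl11b to Usp53 (0.929), Trmt10a (0.916) and Fbxo8 (0.913), Bach1 to Zrsr2 (0.901), Midn (0.898) and Kdm6b (0.897), Ikzf5 to Zfp398 (0.905), Zfp408 (0.875) and Usp30 (0.858), and Ikzf1 to Zbtb33 (0.877), AI987944 (0.843) and Rnf166 (0.843). For Ikzf5 the rank correlations were 0.464 to 0.495, well under r. Among the members themselves, Ikzf2 and Bach1 had r = 0.827, Ikzf2 and Bach2 0.667, Ikzf3 and Bcl11a 0.673, and Ikzf3 and Bcl11b 0.666.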

How the data were processed

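RNA of 14 sorted samples was sequenced. Libraries used the SMART-Seq v4 Ultra Low Input and SMARTer Stranded kits, per the labels' protocols, and the submitters' processing notes name HISAT2 2.0.5, featureCounts 1.5.0-p3 and mm10 without roles. The deposited file holds the authors' raw counts per gene, 13210952 to 19403864 per library. The strand setting is not given in the sources used here. All columns were matched to samples, and of 651 repeated symbols none was a member.

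Genes were filtered with filterByExpr, scaled by TMM and tested with edgeR 4.0.16 (quasi-likelihood, R 4.3.3) within each cell type, or on all 14 libraries for the difference between cell types and for GMPs against LT-HSCs. P-values were adjusted by Benjamini-Hochberg over all genes tested, and a call is an adjusted p under 0.05. Levels are CPM on TMM factors over 14 libraries, per kilobase of GENCODE M21 exons where genes are compared, and log2 CPM carries a prior count of 2. A group at 0 was given a floor of 3 counts, which covers counting error only. The scripts were tested on simulated data. Alternatives were median-of-ratios or upper-quartile factors, no filter, DESeq2 1.42.0, other sample sets, a replicate block and leaving out each library. The block was the replicate number in fits within a cell type. In fits of all 14 libraries it was the replicate number within each genotype.

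The members and the gene lists were chosen with earlier results of these data known. Named genes are the 8 members, Runx1 and Runx1t1, up to 3 called genes per list and direction with the largest log2 fold change (all where 5 or fewer were called), and the 3 genes of highest Pearson correlation to each member. Some results are not reported here. Replicate numbers are shared by the labels of all groups. They paired samples between AML1-ETO GMPs and AML1-ETO LT-HSCs alone, where same-numbered libraries deviated together over 9769 genes (r = 0.110, 0.270 and 0.176).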

Additional observations from a re-analysis of the deposited data

Results flagged for a closer look

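The AML1-ETO effect differed between LT-HSCs and GMPs for 2 members in the test of that difference (edgeR, 14 libraries). For Ikzf3 the adjusted p was 0.0434, with levels lower in 3 of 3 AML1-ETO LT-HSC libraries and above all controls in 2 of 3 AML1-ETO GMP libraries. For Bcl11b it was 0.0371, with levels lower in 3 of 3 AML1-ETO LT-HSC libraries and reads in 1 of 3 AML1-ETO GMP libraries. Both were lost when single libraries were left out and with the replicate number within each genotype as a block (0.308 and 0.316), and Bcl11b had an adjusted p of 1 without AML1-ETO GMP library 1.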

How the results depend on the processing

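Genes called with AML1-ETO in LT-HSCs numbered 1791, and 525 with the replicate block, 3166 in a fit of all 14 samples, 3249 by DESeq2 and 334 to 2376 when 1 library was left out. Members called there numbered 4, and 2, 2, 4 and 2 to 5. In GMPs the 1319 genes became 816 without the filter, 112 with the replicate block, 458 in the fit of all 14 samples, 2953 by DESeq2 and 131 to 3514 when 1 library was left out. The 1 member called there became 2 with median-of-ratios factors, 0 with the replicate block, 3 by DESeq2 and 0 to 3 when 1 library was left out. For the difference between cell types, 1021 genes became 508 with the block, 2087 by DESeq2 and 471 to 1477 when 1 library was left out, and the 2 members became 1 without the filter, 0 with the block and 0 to 4 when 1 library was left out. GMPs against LT-HSCs gave 3949 genes in control mice (2660 to 4584 when 1 library was left out; members 3 to 4) and 3505 in AML1-ETO mice (2092 to 3298; members 1 to 2).

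With the replicate block, Ikzf3 and Bcl11b lost their calls in LT-HSCs (-3.31, adjusted p = 0.285; -3.06, 0.305) and for the difference (0.308 and 0.316), Bach2 in GMPs (2.53, 0.288) and Ikzf3 between control cell types (-3.90, 0.0675). Same-numbered libraries did not deviate together between AML1-ETO and control or between control cell types (r of -0.000898, -0.115 and 0.000807 in LT-HSCs and 0.0798, -0.150 and 0.0364 in GMPs, and -0.00176, -0.0981, -0.0116 and 0.0803 between control cell types). The difference between cell types also uses the AML1-ETO libraries of both cell types, whose numbers pair. In AML1-ETO mice the block changed no member's call and Bcl11b went from 1.46 to -2.51, neither called. Without the filter Ikzf3 was at 0.0670 in LT-HSCs and 0.0527 for the difference, and in the fit of all 14 samples Ikzf3 and Bcl11b were at 0.0655 and 0.132.

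Signs changed for values near 0. Ikzf1 in LT-HSCs was -0.058 with upper-quartile factors, -0.026 in the fit of all 14 samples and -0.025 to 0.24 when 1 library was left out. Leaving out 1 library moved Ikzf5 from -0.091 to 0.52 in LT-HSCs, -1.23 to 0.21 in GMPs, -1.28 to 0.16 for the difference, -0.39 to 0.23 between control cell types (0.011 with the block) and -1.41 to 0.029 between AML1-ETO ones, Bach1 from -0.19 to 0.25 for the difference, and Bcl11b from -6.97 to 2.06 between AML1-ETO cell types. Where a call changed, the cause was not tested.

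The share of higher among called genes in LT-HSCs was 61.8%, and 51.7% with upper-quartile factors, whose median log2 fold change over all genes was -0.10 beside 0.03. Between control cell types it was 56.9%, and 44.9% with median-of-ratios factors (median -0.12 beside 0.02). Between AML1-ETO cell types the upper-quartile median was -0.11. Depth limits Ikzf3, Bcl11b, Ikzf5 and Ikzf4, which lay at or near 0 counts in some libraries.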
